A study of Mus musculus with 4 samples.

Results

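Messenger RNA signals of the nuclear transport and transcription machinery were compared between mouse granulocytes and 3 c-Kit selected blood-forming populations: nucleoporins, the proteins that build the nuclear pore, karyopherins, the carriers that pass through it, and subunits of the nuclear RNA polymerases. A gene entered when a probe set (a group of probes for a transcript) was annotated to its symbol alone and the symbol began with Nup, Ipo, Xpo or Tnpo and a digit, with Kpna or Kpnb, or with Polr1, Polr2 or Polr3. These were 66 of the 18193 genes that the array names by a single symbol, with 161 of 34945 probe sets. There were 19 nucleoporins, 22 karyopherins and 25 polymerase subunits. Nup210l, a germ cell relative of Nup210, and Kpna7, an importin alpha of the egg, lay under the floor of measurement on all 4 arrays, which left 64 measured genes.

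Each population was hybridised to 1 single-colour Affymetrix array, so no difference below has a replicate or a test, and none can be set against the spread between animals or sorts. Granulocytes were bone marrow cells sorted for strong Gr-1 and high granularity, 99.4% pure by morphology according to the labels. LKS stands for lineage-negative cells with c-Kit and Sca-1. HPC (hematopoietic progenitor cells) were LKS-. ST-HSC (short-term repopulating stem cells) were CD34+LKS and LT-HSC (long-term repopulating stem cells) were CD34-LKS; these 3 were taken from c-Kit bead enriched cells, stained for Sca-1, c-Kit, CD34 and a lineage cocktail against erythroid (Ter119), B (B220), T (CD3, CD4, CD8) and myeloid (CD11b, Gr-1) cells. The sources used here give no strain, sex, age or number of animals, and no treatment is named for any group. RNA came from at most 200 cells a population and passed through 2 rounds of amplification, which begins at the 3′ end of transcripts.

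Everything that moves between nucleus and cytoplasm passes the nuclear pore. Importins carry proteins in, exportins carry proteins and some RNAs out, and the small GTPase Ran gives the traffic its direction. Polymerase I makes the large ribosomal RNA precursor, polymerase II makes messenger RNA and polymerase III makes transfer RNA and 5S ribosomal RNA, and several small subunits are built into more than 1 of these enzymes. Granulocytes are end cells that no longer divide and have a lobed, condensed nucleus, whereas progenitors divide, build ribosomes and grow.

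Promoter sequences of 4 members are shown because these genes mark the ends of the patterns described below. Xpo6 was the member highest in granulocytes relative to the other arrays, Nup133 and Ipo4 were the nucleoporin and the karyopherin lowest there, and Xpo1 was the steadiest member. Each runs 5′ to 3′ along the gene's strand, from 250 bases before to 50 bases after the RefSeq start, on assembly GRCm38.p6. Capitals mark matches to the motifs named in the next paragraph. The intervals are chr7:126200452-126200751 on the minus strand for Xpo6, chr8:123949216-123949515 on the minus strand for Nup133, chr14:55635635-55635934 on the minus strand for Ipo4 and chr11:23255791-23256090 on the plus strand for Xpo1.
Xpo6: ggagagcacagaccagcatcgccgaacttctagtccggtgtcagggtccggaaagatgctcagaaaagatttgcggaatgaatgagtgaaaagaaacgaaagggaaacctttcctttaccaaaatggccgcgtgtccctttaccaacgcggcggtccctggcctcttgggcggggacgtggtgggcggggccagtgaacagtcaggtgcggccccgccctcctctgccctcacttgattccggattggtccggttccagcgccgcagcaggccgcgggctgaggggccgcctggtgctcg
Nup133: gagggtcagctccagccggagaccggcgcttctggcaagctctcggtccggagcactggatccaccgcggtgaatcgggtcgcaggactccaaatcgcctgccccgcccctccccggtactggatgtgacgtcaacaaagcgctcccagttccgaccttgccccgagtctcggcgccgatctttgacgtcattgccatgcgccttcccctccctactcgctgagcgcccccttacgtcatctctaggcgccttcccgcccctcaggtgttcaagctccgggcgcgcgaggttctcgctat
Ipo4: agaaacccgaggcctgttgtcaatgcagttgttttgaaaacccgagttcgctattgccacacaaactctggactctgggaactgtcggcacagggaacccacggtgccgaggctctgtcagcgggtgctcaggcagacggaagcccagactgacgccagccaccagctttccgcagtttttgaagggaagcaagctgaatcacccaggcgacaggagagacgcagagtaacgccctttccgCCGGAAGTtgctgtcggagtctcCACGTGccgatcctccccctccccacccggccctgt
Xpo1: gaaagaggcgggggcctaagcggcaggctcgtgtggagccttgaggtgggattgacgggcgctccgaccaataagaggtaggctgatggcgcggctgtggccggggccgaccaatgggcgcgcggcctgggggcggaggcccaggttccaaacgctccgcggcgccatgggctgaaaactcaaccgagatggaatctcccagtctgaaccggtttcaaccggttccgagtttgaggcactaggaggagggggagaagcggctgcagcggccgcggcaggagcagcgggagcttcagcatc

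RefSeq promoters were found for 54 of the 66 genes, 63 promoters in all. Their median GC content was 62.7%, against 52.7% over the 32851 mouse promoters of the same length. The ETS motif CCGGAAGT, sought on both strands like the others, was present in 9 of the 63 (14.3%, against 3.89% of all promoters). These were the promoters of Ipo4, Nup54, Nup155, Polr1c, Polr1e, Polr2f, Polr2j, Polr3b and Tnpo3. The NRF1 motif GCATGCGC was present in 6 (9.52% against 2.71%), including Nup62, Nup107, Polr2b and Xpo5. The YY1 motif AAGATGGC was present in 4, namely Nup50, Nup88, Nup188 and Nup205 (6.35% against 2.75%). An E-box, CACGTG, was present in 10 (15.9% against 7.15%), and the TATA motif TATAAA in 6 (9.52% against 13.6%). The promoter of Ipo4 held the ETS motif and the E-box, and those printed for Xpo6, Nup133 and Xpo1 held none of these letter strings. Polr2m, the polymerase subunit furthest below its nearest array in granulocytes, has 2 promoters, which are not printed. They held none of the strings either, at GC contents of 48.7% and 39.3%. A match is a description of the letters in this window, and these arrays did not measure binding.

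Signals are the deposited linear intensities, which share 1 scale because the 2% trimmed mean of every array is 500. They are relative to the whole of each array, so RNA content per cell is not seen, and fewer cells of a type and less RNA per cell cannot be told apart. The floor is the median of all signals, 120.1; a lower signal counts as the floor and the fold is then written as at least that size. A gene is represented by its brightest probe set, and a gene is called lower or higher when it is at least 2-fold apart from each array it is compared with. The only measure of error is the SD between probe sets of the same gene, which for the granulocyte difference was 0.85 on the log2 scale over 2874 genes and 1.19 over the 23 members with enough probe sets. It was 0.54 and 0.55 for HPC, and 0.61 and 0.41 for LT-HSC against ST-HSC. A 2-fold difference is 1 on that scale, so single calls near the threshold lie close to the disagreement between probe sets.

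Marker genes were checked before the members. The 10 granulocyte markers summed to 426000 on the granulocyte array, 611.1 in HPC and 658.0 in ST-HSC. The LT-HSC array stood apart, with a sum of 22760, which is 5.34% of the granulocyte sum. Among its markers S100a8 read 6783, Ngp 5299 and Lcn2 3332, while Mmp8, Mmp9, Cxcr2 and Itgam, granulocyte genes as well, were under the floor. The same array held Vpreb1, a pre-B cell gene, at 4815, against 2532 in HPC and 15.0 in ST-HSC, although the gate excludes B220. The 7 stem and progenitor markers found summed to 831.4 in granulocytes, 13680 in progenitors, 34690 for LT-HSC and 27550 for ST-HSC. Monocyte and macrophage markers summed to 16020 in granulocytes and 13120 in HPC, against 933.3 and 1086 in the stem cell gates, most of it from Csf1r. The 4 cumulus cell markers, checked because the sorted cells were handled in emptied egg coats, summed to 832.6 in granulocytes against 123.6 to 303.1, with Has2 at 333.3 and Tnfaip6 at 414.7 in granulocytes and both under the floor elsewhere. Of the other cumulus markers, Ptx3 was under the floor in granulocytes at 55.7 and highest in HPC at 164.4. Amh was under the floor on every array. The 5 oocyte markers summed to 822.4 against 314.8 to 588.9. The 4 granulocyte-monocyte progenitor markers, Mpo, Elane, Ctsg and Prtn3, also differed between arrays. They summed to 61520 in HPC and 21990 in ST-HSC, against 3591 in LT-HSC and 334.4 in granulocytes. The 4 B lineage markers found, Vpreb1 among them, summed to 8740 in LT-HSC, 4737 in HPC, 1100 in granulocytes and 492.9 in ST-HSC. T and NK, erythroid and megakaryocyte markers summed to at most 2436 on any array. The actin 3′ to 5′ signal ratio, which grows as transcripts are cut short, was 5.75 in granulocytes and 12.2 to 16.1 on the others, and Gapdh ran from 12.4 to 17.8. The part of these array differences in the results was not tested, and counts are given with and without the LT-HSC array.

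Most of the transport and polymerase genes had their lowest signal in granulocytes. Of 64 measured members, 32 (50.0%) were at least 2-fold lower in granulocytes than on each of the other 3 arrays, against 16.1% of the 14408 measured genes. A single member, Xpo6, was at least 2-fold higher (1.56%), against 11.2% of all genes. By any size, 53 members were lowest in granulocytes, where 32.2% of all genes were, and 17 were at least 4-fold lower, where 6.75% of all genes were. The median member lay at -1.68 on the log2 scale against the mean of the other arrays, with an interquartile range from -2.36 to -0.62, while the median of all genes was -0.05.

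The size of that contrast depends on the comparison set. Among genes whose mean signal over the arrays is at or above the 75th percentile of all signals, 29 of 54 members (53.7%) and 28.2% of 7258 genes were lower, with medians of -1.82 and -0.40. Taking each gene at the median of its probe sets in place of the brightest left 23 members lower (35.9%, against 10.2% of all genes) and a median of -0.91. Without the LT-HSC array 38 members were lower and 2, Xpo6 and Polr1a, were higher (18.5% and 13.1% of all genes). Scaling by the common 75th percentile moved the median of all genes to 0.13 and gave 13.4% lower and 14.8% higher, with 32 and 2 members. Scaling by the hybridization spikes moved it to -0.30 and gave 21.2% and 6.26%, with 42 members and 1 member.

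**Figure D1:**
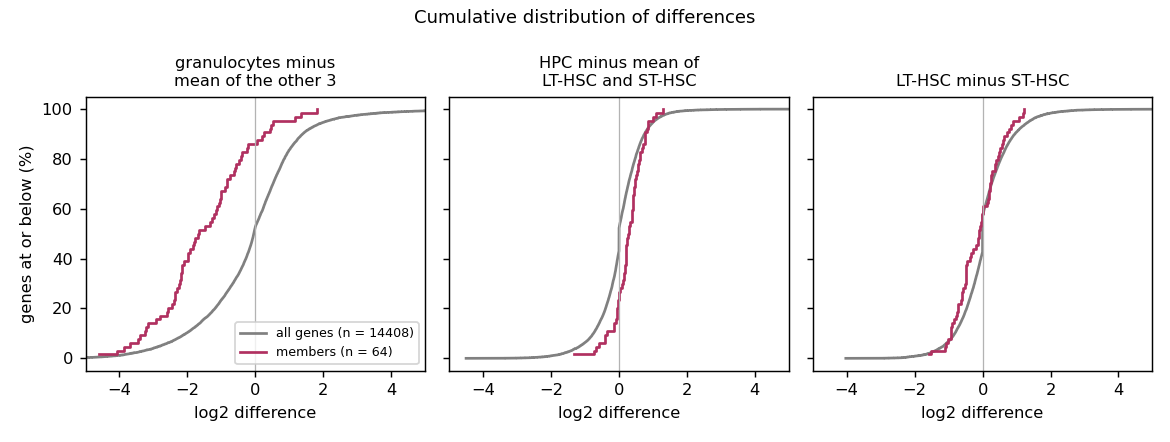
Cumulative share (%) of genes at or below each log2 difference in the 3 comparisons, for the 64 measured members (red steps) and the 14408 measured genes (grey). The members' curve lies far to the left in granulocytes, with a median of -1.68, and close to that of all genes in the comparisons of HPC (0.28) and of LT-HSC with ST-HSC (-0.12).

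By their brightest probe sets the nucleoporins shared their direction, and all 18 measured had their lowest signal in granulocytes. Other probe sets did not always follow. For Nup50, 1 of 3 was higher in granulocytes, by 0.57 on the log2 scale. For Nup98, 1 of 2 was higher, by 0.36, and those of Nup43, Nup54 and Nup155 are given below. Of these, 10 were at least 2-fold lower, none was higher, and the family median was -1.88. Nup133, of the scaffold, was the single nucleoporin furthest below the other arrays. In the Y complex, the outer ring of the pore, 3 of 6 were called and the median was -1.89.

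Nup133, a stem protein of the Y complex, read 95.4 in granulocytes and 2728, 2235 and 4036 in the HPC, LT-HSC and ST-HSC arrays. Granulocytes were under the floor and the other 3 far above it, at least 18.6-fold apart from the nearest. A second probe set of Nup133 followed at 161.0, 1275, 900.7 and 2204, and the remaining ones were dim. In the same order of arrays, which is used from here on, Nup85, an arm of the Y, read 477.8, 2928, 2336 and 2119 and was 4.44-fold to 6.13-fold lower in granulocytes. Nup160, another arm of the Y, read 289.5, 1910, 979.0 and 826.7, a smallest difference of 2.86-fold. Nup107, the stem partner of Nup133, read 711.8, 3597, 1257 and 2544. It was lowest in granulocytes too, but LT-HSC came within 1.77-fold, so it was not called. Nup37 was 101.6, 222.2, 632.8 and 494.3, and Nup43 was 399.3, 1187, 708.1 and 701.1, both small propeller subunits and both lowest in granulocytes. Against the nearest array the step was at least 1.85-fold for Nup37, which was under the floor in granulocytes, and 1.76-fold for Nup43, and neither was called. A second Nup43 probe set read 566.6, 896.1, 561.0 and 544.0, with granulocytes between the others.

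The 4 members of the inner ring, the scaffold that holds the channel, were all called, with a median of -2.17. Nup205 read 413.4, 3557, 1688 and 5020, at least 4.08-fold and up to 12.1-fold lower in granulocytes. Its paralogue Nup188 read 60.9, 597.3, 587.6 and 389.2, with granulocytes under the floor and a difference of at least 3.24-fold. Neither gene's granulocyte signal came near any of the other 3. Nup155, which links the ring to the membrane, read 79.5, 681.6, 526.6 and 517.5, at least 4.31-fold lower. Nup93, the organiser of the inner ring, read 373.1, 1428, 1084 and 1819, with 2.90-fold to the nearest array. A dim probe set of Nup155 ran the other way, at 162.0 in granulocytes and under the floor elsewhere.

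The channel and the faces of the pore were more mixed. Nup62, the central channel protein with FG repeats that carriers bind, read 5444, 14389, 11742 and 10064, which is 1.85-fold to 2.64-fold lower and not called. Another 3 of its probe sets were lower by 2.58 to 2.80 on the log2 scale, for example 804.4, 6633, 5662 and 3615, so the size for Nup62 depends on the probe set. Nup54, its channel partner, read 1602, 7967, 5166 and 8926, 3.23-fold lower or more. It was the only member whose probe sets ran at least 2-fold in both directions here: another read 2248, 236.3, 343.6 and 326.3, a difference of 2.91 upwards on the log2 scale. Nup98, a mobile FG protein that also joins messenger RNA export, read 1172, 3658, 2740 and 2263 and stayed just inside 2-fold, at 1.93.

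On the cytoplasmic side, Nup88 and Nup214, which form a complex where export ends, were both called. Nup88 read 565.1, 4753, 2279 and 3747, with 4.03-fold to the nearest array. Nup214 read 714.3, 3238, 3006 and 1687, with 2.36-fold. Granulocytes were the lowest for each by a clear step. The nuclear basket showed smaller differences. Nup153, the basket anchor, read 1252, 2885, 1452 and 3092, so granulocytes and LT-HSC were within 1.16-fold, although another of its probe sets read 86.8, 2542, 1955 and 2598. Nup50, a basket protein that helps release importin cargo, read 2474, 3091, 2805 and 4210. The membrane ring protein Nup210 read 2667, 5815, 3333 and 4674 and was 1.25-fold below LT-HSC.

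**Figure D2:**
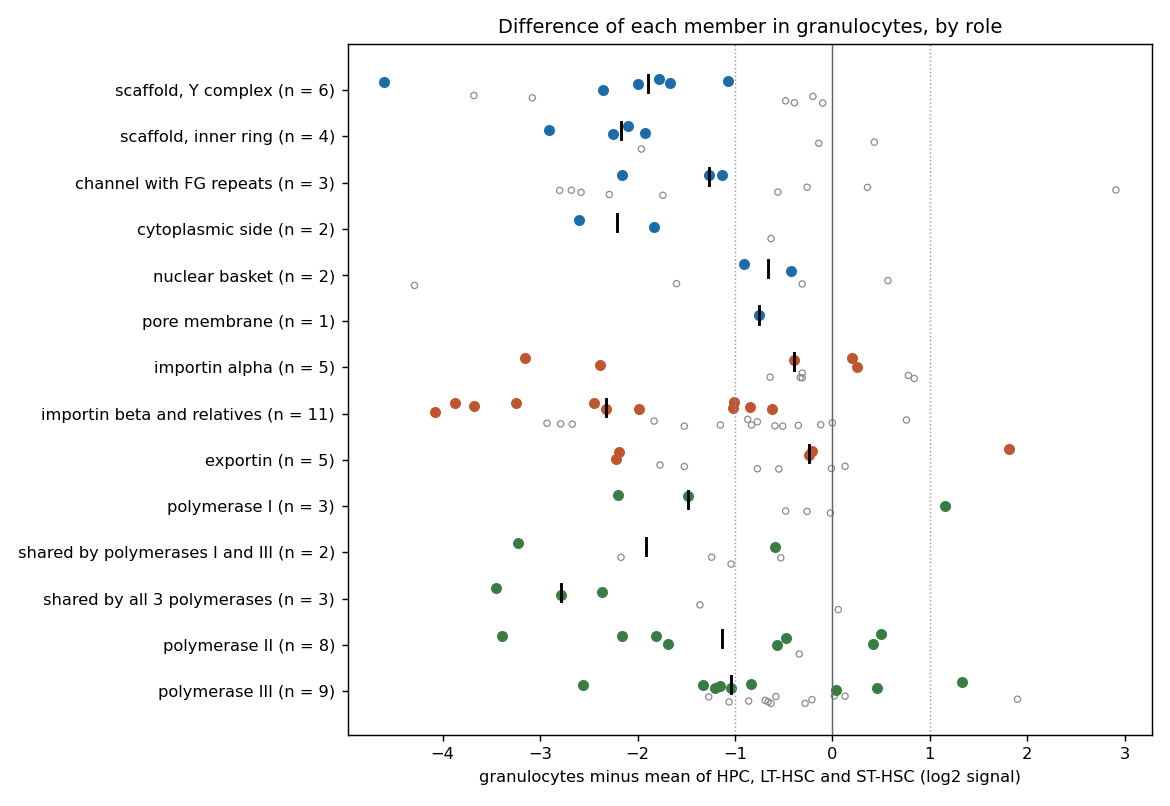
Log2 difference of granulocytes from the mean of HPC, LT-HSC and ST-HSC for each measured member by role (filled points, brightest probe set; n is the number of members), with other probe sets above the floor as open points, the median as a bar and dotted lines at 2-fold. The lowest medians are those of the subunits shared by all 3 polymerases (-2.79), importin beta and relatives (-2.32), the cytoplasmic side (-2.22) and the inner ring (-2.17), and the filled point furthest right is Xpo6 at 1.81.

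The carriers differed by kind in how many were called. Of 21 measured karyopherins, 11 were at least 2-fold lower in granulocytes and 1 was higher, with a median of -1.99. Importin beta and its import relatives had 7 of 11 called and a median of -2.32. Importin alphas had 2 of 5 lower and none higher (median -0.39). Exportins had 2 of 5 lower and 1 higher (median -0.24).

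Ipo4, an importin of histones and ribosomal proteins, read 13.1, 1986, 1954 and 2165. Granulocytes were under the floor, at least 16.3-fold below an even level in the other 3. A second, dimmer probe set of Ipo4 differed by only -0.51 on the log2 scale. Ipo7, which brings ribosomal proteins and, with importin beta, histone H1 into the nucleus, read 154.8, 3222, 1588 and 2244, a difference of 10.3-fold to 20.8-fold. Ipo5, another carrier of ribosomal proteins, read 363.2, 5825, 3364 and 5182, 9.26-fold or more. Its second probe set repeated the order at 239.3, 2234, 1009 and 2006. By the brightest probe set, the granulocyte signal of each of these 3 importins was far under the lowest of the other populations. The second Ipo4 probe set read 606.8 in granulocytes and 659.6 in HPC. The other Ipo7 probe sets were dim and did not separate granulocytes from HPC.

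The next importins were lower by smaller steps. Ipo11 read 111.7, 872.6, 1255 and 1359, at least 7.27-fold. Ipo9, a carrier of core histones, read 339.2, 1983, 1304 and 2438, and Ipo8, the close relative of Ipo7, read 188.5, 664.8, 1337 and 931.4. They were 3.84-fold and 3.53-fold lower in granulocytes than on the nearest array. Tnpo1 (transportin), which imports RNA-binding proteins, read 682.3, 2952, 3320 and 2037, with 2.99-fold to the nearest array. Kpnb1, importin beta itself, was not called: it read 2351, 5783, 3146 and 5958, lowest in granulocytes but 1.34-fold from LT-HSC. Ipo13, Tnpo2 and Tnpo3, which carries splicing factors, were lowest in granulocytes by 1.27-fold, 1.28-fold and 1.62-fold.

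Importin alphas, the adaptors that read the classical import signal, were not all lower in granulocytes. Kpna3 read 229.0, 1683, 1632 and 3102, 7.13-fold lower in granulocytes, and Kpna6 read 277.6, 1458, 1651 and 1276, 4.60-fold lower. The other probe sets of Kpna3 differed by -0.64 and -0.31 on the log2 scale, and for Kpna6 another read 441.6, 223.5, 315.1 and 212.0, which is higher in granulocytes. Kpna2 read 2123, 1792, 1285 and 2451, Kpna4 read 3279, 3453, 2956 and 2267, and Kpna1 read 1820, 3371, 1357 and 2943. For these 3 the granulocyte signal lay among the others, and the difference from their mean turned from 0.25 and 0.20 to -0.20 and -0.25 for Kpna2 and Kpna4 when arrays were scaled by the hybridization spikes.

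Exportins included the member furthest up in granulocytes and the steadiest member. Xpo6, the exporter of actin with profilin, read 3925, 1093, 1201 and 1070. The 3 c-Kit selected populations were nearly level and granulocytes were 3.27-fold to 3.67-fold above them, a difference that ranged from 1.35 to 2.04 on the log2 scale over the alternative settings. It has a single probe set. Xpo7 went the other way at 2133, 9825, 10692 and 9388, 4.40-fold lower in granulocytes, although its other, dim probe sets differed less. Xpo5, the exporter of microRNA precursors, read 19.2, 728.7, 394.9 and 566.3, at least 3.29-fold lower, and its second probe set read 85.5, 451.5, 352.0 and 255.4. Xpo1 (CRM1), the main protein exporter, was the steadiest member at 5268, 7080, 6297 and 5375, a range of 0.43 on the log2 scale. A second Xpo1 probe set was not steady, at 1750, 6735, 5363 and 5850. Xpo4 read 486.6, 694.9, 618.4 and 417.4, with granulocytes between the others.

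**Figure D3:**
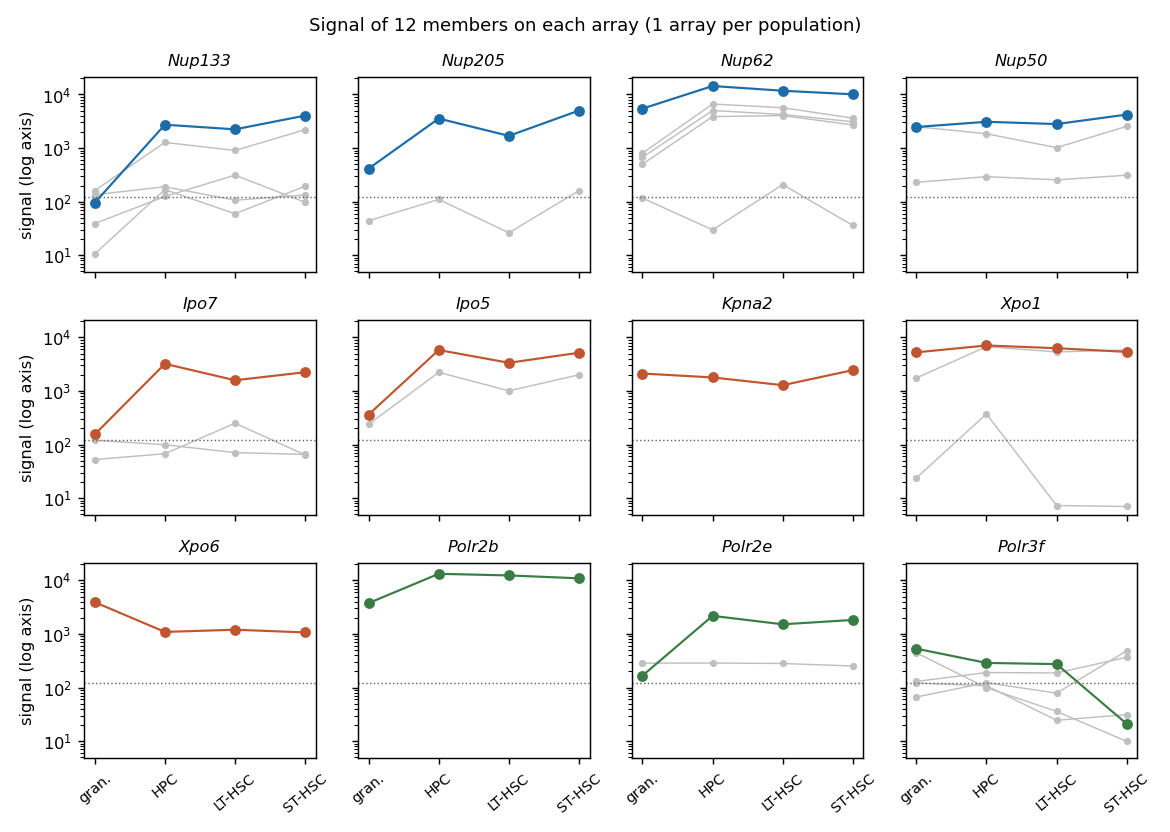
Signal (linear intensity on a log axis) of 12 members on the 4 arrays, 1 array per population; coloured points are the brightest probe set, grey points the gene's other probe sets, and the dotted line is the floor of 120.1. Nup133, Ipo7 and Ipo5 are low in granulocytes, Xpo1 is the steadiest, the granulocyte signal of Kpna2 lies among the others, Xpo6 is higher in granulocytes, and the probe sets of Polr2e and Polr3f disagree.

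Of 25 polymerase subunits, 11 were at least 2-fold lower in granulocytes, none was higher, and the median was -1.21. Among the members built into more than 1 enzyme, all 3 shared by the 3 polymerases were called (median -2.79). So was 1 of the 2 shared by polymerases I and III. The members shared by all 3 enzymes are Polr2e, Polr2f and Polr2h, and they need not be the full shared set. Polymerase III had the fewest calls, with 1 of 9.

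Polr2e read 166.8, 2179, 1516 and 1829, 9.09-fold or more below the others. Its other probe set was level, at 285.7, 287.0, 281.6 and 252.3, so the call rests on which probe set represents it. Polr2f read 22.0, 705.1, 808.7 and 1015, at least 5.87-fold lower. Polr2h read 34.3, 702.8, 345.2 and 987.4, at least 2.87-fold lower. Granulocytes were under the floor for both of the latter. Polr1c, shared by polymerases I and III, read 997.2, 9928, 7669 and 10846, 7.69-fold lower, whereas its partner Polr1d read 2916, 4803, 4544 and 3845 and was among the 5 steadiest members, with a range of 0.72 on the log2 scale.

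Within polymerase I, the catalytic subunit and its partners parted. Polr1e, a subunit used in initiation, read 102.4, 811.6, 451.9 and 461.5, at least 3.76-fold lower, and Polr1b, the second largest subunit, read 125.4, 341.9, 421.1 and 299.5, 2.39-fold lower. Polr1a, the largest subunit, read 564.7, 243.6, 393.9 and 167.5. It was highest in granulocytes by 1.43-fold, with its probe sets between -0.26 and 1.16 on the log2 scale.

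Within polymerase II, Polr2m, which binds the enzyme as a regulator, read 353.9, 3661, 3653 and 3804. It was 10.3-fold lower in granulocytes than in any other population, and the 3 others were level. Polr2b, the second largest subunit, read 3771, 13280, 12384 and 10939, 2.90-fold lower. Polr2a, the largest and catalytic subunit, read 1443, 1858, 1095 and 517.0, with granulocytes second highest. Polr2i and Polr2c were 3.14-fold and 3.05-fold lower, at 390.8 and 919.5 in granulocytes against 1227 to 2185 and 2801 to 3907 elsewhere. Polr2d was nearly level at 939.0, 1358, 1200 and 1373, Polr2j was 1.13-fold lower than the nearest array, and Polr2g lay between the others.

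Within polymerase III, Polr3e read 15.2, 784.9, 656.4 and 695.3, with granulocytes under the floor and at least 5.47-fold lower. Polr3a, the catalytic subunit, read 719.9, 1371, 2397 and 1406, and Polr3k, which acts in termination, read 728.0, 2112, 1397 and 1418. Each was lowest in granulocytes by just under 2-fold, at 1.90 and 1.92. Polr3g was at 1.95, the nearest below the threshold, and Polr3c and Polr3d at 1.51 and 1.37. Polr3b, the second largest subunit, read 700.5, 1012, 758.3 and 408.3. Polr3gl, the paralogue of Polr3g, read 434.0, 349.0, 257.7 and 351.5 and was highest in granulocytes by 1.24-fold. Polr3f was highest there too at 532.3, 288.6, 274.0 and 21.0, 1.84-fold, but its probe sets ran from -0.86 to 1.90 on the log2 scale.

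Agreement between probe sets set a limit on single genes. Of the 32 members called lower, 22 had several probe sets above the floor; in 15 of them every such probe set was lower in granulocytes, and in 7 (Ipo7, Ipo8, Kpna6, Nup54, Nup155, Polr2e and Xpo7) at least 1 was higher, that of Ipo7 lying at the floor. In 10 of the 32, granulocytes were under the floor, so only a bound is known. Over probe sets in place of genes, 2-fold was taken against the mean of the other arrays, not against each of them. By that measure 67 of 136 members' probe sets above the floor were lower and 5 higher, with a median of -0.89. Over the whole array it was 5204 and 4201 of 25298, with a median of -0.04. By gene, the same measure gave 43 of 64 members lower (67.2%, against 23.5% of all genes). It gave 3 higher (4.69%, against 16.3%).

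Among genes that work with the members, the pooled share lower in granulocytes lay between that of the members and that of the array. Of 92 measured genes of the pore, the Ran cycle, messenger RNA export and polymerase factors, 35 (38.0%) were lower and 1 was higher, with a median of -1.10. Messenger RNA export had 9 of 17 (52.9%, above the members' 50.0%), the Ran cycle and other carriers 5 of 11 with 1 higher (Ranbp9), other pore proteins 4 of 11, polymerase I factors 3 of 10, polymerase II factors 7 of 24, polymerase III factors 5 of 15 and the mitochondrial polymerase group 2 of 4. The 15 measured proliferation genes, listed as markers of dividing cells, had 10 lower and a median of -2.24.

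Ran, the GTPase that powers the carriers, read 7881, 21905, 16577 and 21636, 2.10-fold lower in granulocytes. Cse1l, the exportin that returns importin alpha, read 1108, 5813, 4656 and 3852, 3.48-fold lower. Rangap1, which switches Ran off in the cytoplasm, read 181.9, 1037, 621.7 and 984.3, but its sign turned with the choice of probe set. Rcc1, which charges Ran on chromatin, was under the floor in granulocytes at 22.4 and read 452.0, 181.8 and 433.9. Ranbp2, the filament protein of the pore, was not called at 897.8, 967.8, 1005 and 1669. Nxf1, the receptor for messenger RNA export, read 1612, 2950, 4286 and 3550 and was lowest in granulocytes by 1.83-fold.

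The initiation factors of each polymerase differed among themselves. Rrn3, which recruits polymerase I, read 134.0, 448.3, 651.8 and 710.3, 3.35-fold lower in granulocytes, while Ubtf, which opens ribosomal DNA, was level with LT-HSC at 2435, 1204, 2398 and 1654. Brf1, of the polymerase III initiation factor, read 100.2, 381.2, 428.5 and 527.1, at least 3.17-fold lower. Tbp, the TATA-binding protein used by all 3 enzymes, read 1398, 2010, 776.6 and 1465 and did not stand apart. Polrmt, the mitochondrial RNA polymerase, read 359.3, 2345, 1299 and 393.3, so granulocytes and ST-HSC were close.

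**Figure D4:**
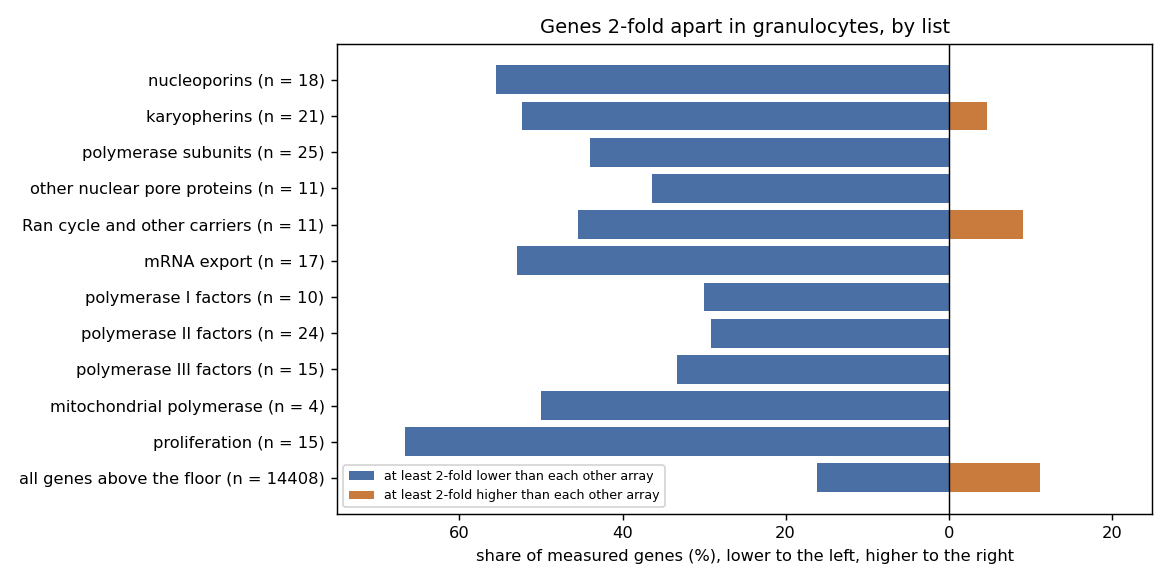
Share (%) of measured genes at least 2-fold lower (bars to the left) or higher (bars to the right) in granulocytes than on each other array, for the 3 member families, 8 further lists and all 14408 genes; n is the number of measured genes. Each list has a longer bar to the left than all genes at 16.1%, and bars to the right appear only for karyopherins, the Ran list and all genes.

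Among the 3 c-Kit selected populations the same genes differed little. In HPC, 1 of 64 members was at least 2-fold lower than in both stem cell gates (3.4% of all genes) and none was higher (2.67%). With 1 array a group this is a count of sizes and no test. The median was 0.28, against 0.00 for all genes: nucleoporins lay at 0.40, karyopherins at 0.18 and polymerase subunits at 0.22. Of the 64, 32 (50.0%) had their highest signal among these 3 in HPC, where 36.8% of the 11084 genes without ties did, and 6 (9.38%) had their lowest there, where 29.6% did.

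Nup37 was the member called lower in HPC, 2.23-fold to 2.85-fold, at the signals given above. Nup160 came nearest to a call upwards, with 1.95-fold over the nearer stem cell array. Polr1e, Polr2g, Polr2a and Nup43 followed at 1.76-fold, 1.75-fold, 1.70-fold and 1.68-fold. Their differences from the mean of the stem cell gates ran from 0.75 to 1.30 on the log2 scale for those higher and -1.33 for Nup37, beside a probe set SD of 0.54. Polr3k had probe sets apart by over 2-fold in both directions, at -1.28 and 1.14. Without the LT-HSC array, 4 members (Nup160, Polr2a, Polr3b and Polr3f) were higher and Nup37 lower in HPC than in ST-HSC, against 8.17% and 7.84% of all genes, and the median was 0.19.

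Between the stem cell gates, 5 members were at least 2-fold lower in LT-HSC than in ST-HSC (7.81%, against 6.84% of all genes) and 3 were higher (4.69%, against 9.2%). The median was -0.12, with all genes at 0.00, and LT-HSC held the lowest of the 3 c-Kit selected signals for 34 members (53.1%, against 34.9% of all genes). The LT-HSC array is also the one with granulocyte marker signal, and members were low in granulocytes; the part of that signal was not tested.

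Of the 5 lower members, 3 are nucleoporins, 3 of the 18 measured (16.7%, against 6.84% of all genes). Nup205 was 1688 in LT-HSC and 5020 in ST-HSC, 2.97-fold apart, Nup153 was 1452 and 3092, and Nup107 was 1257 and 2544. Polr2h was 345.2 and 987.4, 2.86-fold apart, and Kpna1 was 1357 and 2943. For Nup205, Nup153 and Kpna1 every probe set above the floor was lower in LT-HSC, by -0.42, -0.27 and -0.56 or more on the log2 scale, and Polr2h and Nup107 have only 1 above the floor. The 3 higher members were all polymerase subunits, 3 of the 25 measured, a share near that of all genes (9.2%). Polr1a was 393.9 and 167.5, Polr2a 1095 and 517.0, and Polr3f 274.0 and 21.0. Polr3f had another probe set at 78.6 and 486.0, the opposite order, Polr1a had probe sets between -0.54 and 1.27, and a second Polr2a probe set was under the floor in both. Nup133 had probe sets 2-fold apart in both directions, at -1.29 and 1.38.

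The split between lower and higher in this comparison moved with the scale. It was 5 and 3 as deposited. With a common 75th percentile it was 9 and 2, where 8.14% and 7.38% of all genes were lower and higher. With the hybridization spikes it was 2 and 5 (3.08% and 7.69% of members), against 4.68% and 12.9% of all genes, and the median turned to 0.10 beside 0.07 for all genes.

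**Figure D5:**
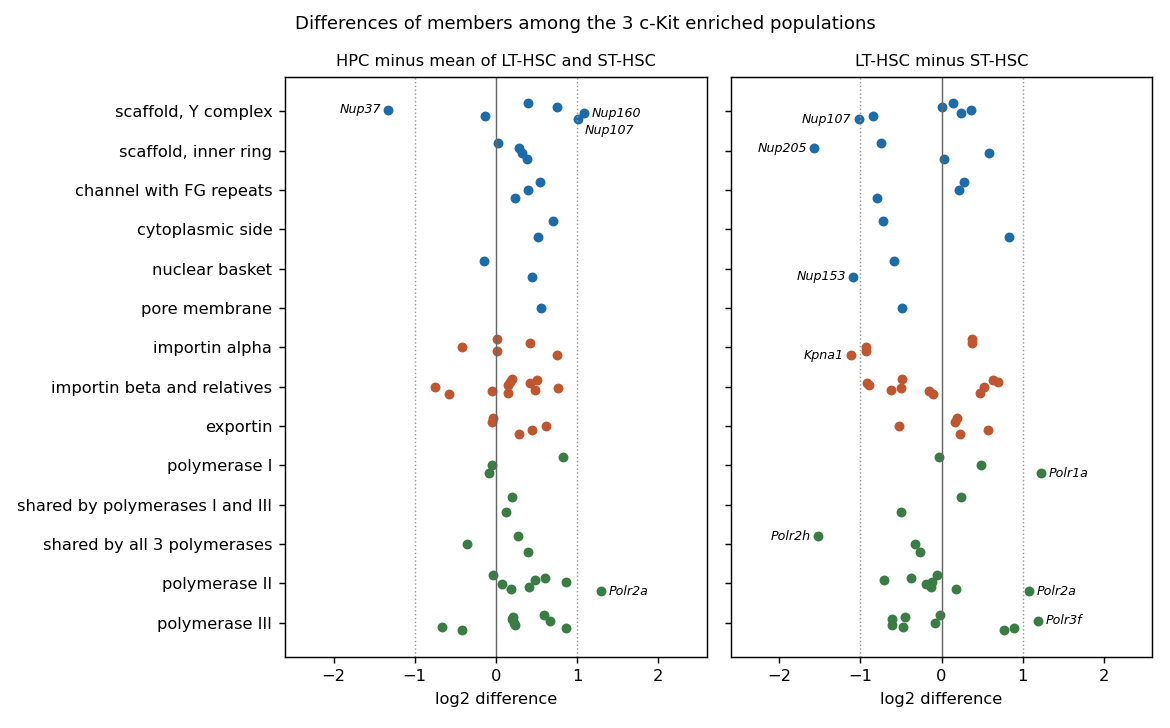
Log2 difference of each measured member, by role, for HPC against the mean of the stem cell gates (left) and LT-HSC against ST-HSC (right); dotted lines mark 2-fold and genes at or past it in these differences are named. Most points lie within 2-fold, and the points named on the right are the 5 lower and 3 higher members.

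Over all 4 arrays, 52 members were above the floor everywhere, and 11 of these stayed within 2-fold from their lowest to their highest array. The same shares were not computed over all genes, so these counts cannot be called few or many. The 5 steadiest were Xpo1, Polr2d, Kpna4, Polr1d and Xpo4, with ranges of 0.43, 0.55, 0.61, 0.72 and 0.74 on the log2 scale. They comprise 2 exportins, an importin alpha and 2 small polymerase subunits, and no nucleoporin. The highest of the 4 signals lay in HPC for 31 members, in ST-HSC for 21, in LT-HSC for 8 and in granulocytes for 4, namely Xpo6, Polr3f, Polr1a and Polr3gl, whereas 38.1% of all genes were highest in granulocytes.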

How the data were processed

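Probe set intensity on a linear scale was used as deposited by the authors, 1 array for each of the 4 populations. No source used here names the summary software or gives detection calls; the 2% trimmed mean was 500 on every array. Of 45101 probe sets, 64 controls were left out. Platform annotation gave a single symbol for 34945 probe sets, several for 932 and none for 9160. All 66 member symbols were found in RefSeq (GRCm38.p6) by Entrez number. The 5 probe sets that name a member together with another gene were left out, as were Tpr and Nutf2, which no probe set names alone.

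Signals under the floor were set to it before log2. A gene's probe set was that with the highest mean log2 signal. Differences, calls at 2-fold against each reference array, medians and alternatives were computed in Python 3.11.15 with pandas 2.3.3 and numpy 2.4.6. The code for calls was checked on simulated data, with changes far larger than 2-fold in bright genes and noise below the probe set SD. That check does not speak to calls near the threshold. Alternatives were other probe set choices, floors and scales, bright genes alone, the mean of the references and leaving out each reference array. With 1 array per population, p-values could not be given. The number of arrays limits the precision.

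The members and the gene lists were chosen with earlier results of these data known. Named genes are the members called in any comparison (up to 20 lower and 10 higher), 32 textbook members, the 5 steadiest, those whose probe sets oppose each other by 2-fold, and a few partner genes. Nup43, Nup50, Nup160, Nup210l, Ipo13, Kpna7, Tnpo2, Tnpo3, Polr2c, Polr2g, Polr2i, Polr2j, Polr3c, Polr3d, Polr3g, Polr3gl and Ranbp9 fell outside and were named after their values were seen. Promoters were read from RefSeq.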

Additional observations from a re-analysis of the deposited data

How the results depend on the processing

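The median of the members in granulocytes stayed below 0 under every alternative tried, from -0.91 to -1.90, and the count of lower members was 22 (floor at the 75th percentile, 14.7% of all genes) to 43 (against the mean of the references, 23.5%), and 34 to 38 with a reference array left out (18.5% to 18.8%). In the counts that follow, the share of all genes stands in brackets. Members higher in granulocytes numbered 1 to 2 with a reference array left out (2 without LT-HSC, 13.1% to 13.4%). They numbered 2 with quantile normalization (12.1%) and with a common 75th percentile (14.8%), and 3 against the mean of the references (16.3%). For HPC, lower members numbered 2 with the first probe set by name (3.24%). They numbered 0 with the floor at the 75th percentile (1.95%), with the spikes (2.48%) and among bright genes (4.08%). With a stem cell array left out they numbered 1 without LT-HSC (7.84%) and 2 without ST-HSC (8.59%). Higher members in HPC numbered 1 with the first probe set (2.65%), quantile normalization (3.17%) and the common 75th percentile (3.78%). They numbered 2 with the spikes (5.08%) and 3 against the mean of the references (5.34%). With a stem cell array left out they numbered 4 to 6 (4 without LT-HSC, 6 without ST-HSC, beside 8.17% and 6.72% of all genes). For LT-HSC against ST-HSC, lower members numbered 2 with the median over probe sets (4.27%), 9 with the common 75th percentile (8.14%) and 2 with the spikes (4.68%). Higher members there numbered 0 with the median over probe sets (5.71%), and 1 with the floor at the 75th percentile (6.79%) and among bright genes (9.93%). With the spikes they numbered 5 (12.9%), and the median difference reversed to 0.10. The cause was not tested. Called genes that reversed were Rangap1 in granulocytes (1.08 with the median over probe sets, 1.74 without probe sets of suffix _x_at or _s_at), Kpna6 in granulocytes (0.84, first probe set), Polr2e in granulocytes (0.06, without probe sets of suffix _x_at or _s_at) and Polr3f in LT-HSC against ST-HSC (-0.97, floor at the 25th percentile, where another probe set becomes the brightest). Polr3f in granulocytes, not called, went from 1.33 to -0.86 with that floor. Of the remaining values, 1815 for single genes moved by less than the probe set SD and 129 by more. A gene with 1 probe set keeps its value under another choice of probe set. An array scaled by 1 factor moves its genes above the floor together. These 2 numbers are therefore partly set by the alternatives and do not measure robustness.

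No paired analysis was possible because each population has 1 array. Signals near the floor of 120.1 limit what can be measured: for 10 of the 32 members lower in granulocytes only a bound is known. The counts without replicates say nothing of spread between animals, sorts or amplifications.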
